A study of Rattus norvegicus with 12 samples.

Results

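The expression of 10 core genes of the circadian clock was followed rat by rat in the left ventricle of rats with heart failure (HF) after myocardial infarction. The 10 genes were Arntl (also called Bmal1), Clock, Npas2, Per1, Per2, Per3, Nr1d1, Nr1d2, Dbp and Tef, out of 34700 genes in the deposited table. They were taken by symbol and were chosen by their levels in these same rats, which had been seen. Levels and fold changes are therefore given as a description, without a p-value. All 10 passed the filter on low counts in each of the 6 comparisons.

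Hearts came from 12 male Sprague-Dawley rats, operated on at 8 weeks of age and killed 12 weeks after surgery. In the HF, HFE and BAIBA groups the left anterior descending coronary artery was ligated, while in the Sham group a thread was passed and not tied. HF rats stayed sedentary. HFE rats had treadmill sessions of 60 min, 5 days a week, for 8 weeks. BAIBA rats were dosed for 8 weeks with β-aminoisobutyric acid, a small molecule released by contracting skeletal muscle (75 mg/kg/day, gavage). By the methods, Sham and HF rats of the BAIBA experiment were gavaged with water. Another passage of the study can be read as giving BAIBA to Sham and HF rats. The labels name no such group, and the methods were followed here. Each group held 3 rats, and each library came from 1 rat. RNA came from the anterior left ventricular wall. The study's methods place the BAIBA tissue at the infarct border, and its results section places HF tissue there as well. The hour of the day at which the hearts were taken is not given in the sources used here.

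The circadian clock is a transcription loop that runs inside nearly every cell, heart muscle cells included. ARNTL pairs with CLOCK or its relative NPAS2 and switches on genes that carry E-boxes, among them the Per genes, Nr1d1, Nr1d2, Dbp and Tef. The PER proteins then hold back ARNTL and CLOCK, and the nuclear receptors NR1D1 and NR1D2 (REV-ERBα and REV-ERBβ) silence Arntl and Npas2 through the ROR response element (RORE). DBP and TEF act on D-boxes, which are also found near Per genes. The levels of these RNAs therefore rise and fall over the day, with Arntl and Npas2 in a phase opposite to that of the Per, Nr1d and PAR-bZIP genes.

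These elements were looked for in a RefSeq promoter window of each gene, 250 bases long, in the rat build GRCr8. Where a gene had several windows, the one nearest to the start of the gene was used. Positions below count from the window's own start point, which can lie inside the annotated gene. For Arntl, 144 of the 250 bases lay before the gene, and the RORE lay inside it. For Per2, 174 bases did, the D-box among them. For Tef, Npas2, Per1 and Per3, most of the window lay past the start of the gene. All 10 genes had an entry, and 3 of the 10 held an exact match to 1 of the elements. The stretches of 30 bases are shown because they carry the elements by which the loop connects its arms, 5′ to 3′ on the strand of the gene and with the element in capitals.
Arntl, RORE at 20 bases before the start, chr1:176766298-176766327, plus strand: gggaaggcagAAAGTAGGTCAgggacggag
Per2, D-box at 192 bases before the start, chr9:99497167-99497196, minus strand: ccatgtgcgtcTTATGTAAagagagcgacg
Tef, E-box at 198 bases before the start, chr7:115206617-115206646, plus strand: cacctggcccagCACGTGtctacatcgttt
Both strands were searched, and no element overlapped another. Of 33469 rat promoter windows of this length, 0.317% held a RORE, 0.932% held a D-box (TTATGTAA or TTACGTAA), 5.59% held the E-box CACGTG and 1.59% held the cyclic AMP response element TGACGTCA. None of the 10 clock genes had the last of these in the window, and in the other 7 genes none of the 4 letter strings was found there. For Npas2, Per1 and Per3 the search covered little sequence before the gene, so it does not show that their promoters lack these elements. A match describes the sequence and says nothing of whether the element was in use in these hearts.

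Sequencing gave between 14812541 and 19732588 counts on genes per rat. The labelled tissue was checked on 6 cardiomyocyte genes, which together held 39279.9 to 41521 TMM-scaled CPM (counts scaled by library size) in Sham, 32781 to 34737 CPM in HF, 32552 to 37736 CPM in HFE and 32413 to 40129 CPM in BAIBA. The sum of 3 erythroid genes was 742 to 983 CPM in BAIBA against 412 to 598 CPM in Sham, and that of 4 macrophage genes was 37.2 to 54.1 CPM in HFE against 60.3 to 74.0 CPM in Sham. The sum of 4 atrial genes lay between 12.3 and 540.0 CPM and that of 4 adipocyte genes between 0.195 and 23.2 CPM, both varying within groups. The part of these cells in the levels of the clock genes was not tested. Over all genes, each rat's mean Pearson correlation of log2 CPM with its group mates was between 0.946 and 0.975, lowest in HF rat 1. The labels name an Illumina and an MGI sequencer for every sample without saying which rat ran on which. Rats are numbered as in the labels, and values are listed in the order of rats 1, 2 and 3. Nothing in the sources pairs a numbered rat in one group with that in another.

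Compared per length, as FPKM (fragments scaled by gene length and library size), the PAR-bZIP factors were the most abundant of the 10 RNAs. Dbp had a mean of 55 FPKM over the 12 rats and Tef had 38.8 FPKM. The REV-ERB genes followed, with 32.5 FPKM for Nr1d2 and 28.6 FPKM for Nr1d1. Per1 (22.3 FPKM), Per2 (12.7 FPKM) and Per3 (11.3 FPKM) lay below them. The activators were lowest, with 4.81 FPKM for Clock, 2.09 FPKM for Arntl and 1.18 FPKM for Npas2. Arntl was counted between 33 and 266 times per rat and Npas2 between 32 and 225 times, so their values carried more counting error than those of the other 8 genes, of which the lowest count in any rat was 246. All values below are CPM.

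Among the activators, Arntl (ENSRNOG00000014448), the partner without which the loop does not run, was at 4.69, 3.19 and 2.74 CPM in Sham, at 5.48, 11 and 8.40 CPM in HF, at 17.7, 11 and 3.85 CPM in HFE and at 1.85, 3.14 and 2.04 CPM in BAIBA. All 3 HF rats lay above all 3 Sham rats and above all 3 BAIBA rats. HFE rats 1 and 2 and HF rat 2 held the 3 highest levels, whereas HFE rat 3 lay within the Sham range. Over the 12 rats the highest level was 9.58 times the lowest. The order of group means was HFE, HF, Sham and BAIBA, and of the neighbours in that order HFE and HF overlapped, as did Sham and BAIBA. Arntl was 2.32-fold higher in HF than in Sham, with a log2 fold change of 1.21 (SE 0.31). It was 3.53-fold lower in BAIBA than in HF (log2 fold change -1.82, SE 0.33) and 4.62-fold lower in BAIBA than in HFE (log2 fold change -2.21, SE 0.55).

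**Figure D1:**
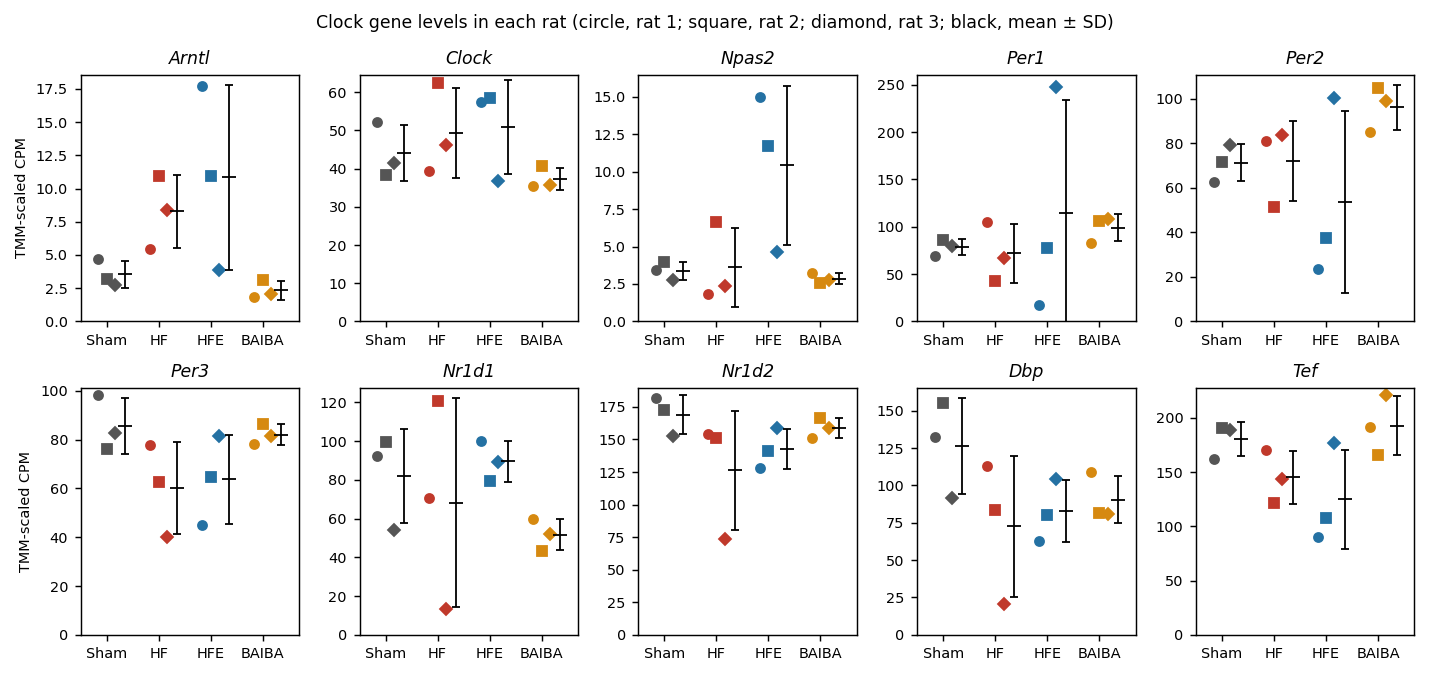
Level of each of the 10 clock genes in each rat, in TMM-scaled CPM on linear axes that start at 0, by group, with the group mean and SD of the 3 rats in black (the lower bar of Per1 in HFE ends below 0 and is cut at the axis). The 3 HFE rats spread from 17.2 to 248 CPM for Per1 and HF rat 3 stands at the bottom of Nr1d1, Nr1d2, Dbp and Per3, while the 3 BAIBA rats stay close together for most genes.

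Npas2 (ENSRNOG00000013408), which can stand in for CLOCK, was at 3.41, 3.97 and 2.74 CPM in Sham, at 1.83, 6.66 and 2.39 CPM in HF, at 15, 11.7 and 4.60 CPM in HFE and at 3.25, 2.56 and 2.77 CPM in BAIBA. It was high in the same HFE rats 1 and 2 as Arntl, and all 3 HFE rats lay above the Sham and the BAIBA rats. In HF it divided the rats, since HF rat 2 was at 6.66 CPM and the other HF rats were below every Sham rat. Npas2 was 3.10-fold higher in HFE than in Sham (log2 fold change 1.63, SE 0.43) and 3.63-fold lower in BAIBA than in HFE (log2 fold change -1.86, SE 0.41). Neighbours in the order of means (HFE, HF, Sham, BAIBA) overlapped throughout.

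Clock (ENSRNOG00000002175), the constant partner of ARNTL, was at 52.3, 38.4 and 41.4 CPM in Sham, at 39.4, 62.5 and 46.2 CPM in HF, at 57.4, 58.6 and 36.7 CPM in HFE and at 35.3, 40.6 and 35.8 CPM in BAIBA. It varied least of the 10 genes, by 1.77-fold over the 12 rats, and no 2 groups were separate. Its order of group means was that of Arntl and Npas2. The 3 highest levels were in HF rat 2 and HFE rats 1 and 2, the same rats that held the 3 highest levels of Arntl.

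Of the repressors, Per1 (ENSRNOG00000007387), which stress hormones can also switch on directly, was at 69.2, 86.1 and 79.7 CPM in Sham, at 105, 43 and 66.9 CPM in HF, at 17.2, 77.2 and 248 CPM in HFE and at 82.7, 106 and 108 CPM in BAIBA. The lowest and the highest level of the whole series were both in the HFE group and differed by 14.4-fold. No 2 groups were separate. The mean of 114 ± 119.8 CPM (SD, n = 3) in HFE therefore described none of its rats, against 78.3 ± 8.52 CPM in Sham, 71.8 ± 31.5 CPM in HF and 99 ± 14.1 CPM in BAIBA. The log2 fold change of Per1 in HFE against Sham was 0.55 (SE 0.95), and it turned to -0.72 without HFE rat 3. In HFE against HF it was 0.67 (SE 0.94), and it turned to -0.60 without the same rat.

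In HFE rat 3, RNAs of the immediate early response, which rise within minutes of a stimulus, stood high together with Per1. All 11 genes of a list that included Fos, Egr1, Nr4a1, Atf3 and Btg2 had their highest level of the 12 rats in HFE rat 3. Their sum was 1914 CPM there, against 227 to 586 CPM in the other 11 rats, which was the value of HF rat 1 at its upper end. HFE rat 1, with the lowest Per1, had a sum of 281 CPM, within the Sham range of 251 to 284 CPM. The part of this response in the level of Per1 was not tested.

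Per2 (ENSRNOG00000020254), the other PER protein that the loop depends on, was at 62.7, 71.6 and 79.3 CPM in Sham, at 81.1, 51.6 and 83.8 CPM in HF, at 23.6, 37.4 and 100.2 CPM in HFE and at 85.1, 105 and 98.9 CPM in BAIBA. All 3 BAIBA rats lay above all Sham and all HF rats, although the gap to HF was narrow (85.1 against 83.8 CPM). In HFE the range was 4.24-fold, with rat 1 lowest and rat 3 within the BAIBA range. Per2 was 1.36-fold higher in BAIBA than in Sham (log2 fold change 0.44, SE 0.12) and 1.33-fold higher than in HF (log2 fold change 0.41, SE 0.19). The HF, Sham and HFE groups, next in the order of means, overlapped.

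Per3 (ENSRNOG00000018413), the PER protein that the loop can spare, was at 98.4, 76.1 and 82.9 CPM in Sham, at 78, 62.5 and 40.2 CPM in HF, at 45.2, 64.7 and 81.6 CPM in HFE and at 78.1, 86.5 and 81.7 CPM in BAIBA. It was lowest in HF rat 3 and HFE rat 1. The BAIBA rats lay above the HF rats by the smallest of margins, 78.1 against 78 CPM, and the order of means was Sham, BAIBA, HFE and HF, with overlap between all neighbours. The log2 fold change was 0.45 (SE 0.22) in BAIBA against HF and -0.51 (SE 0.24) in HF against Sham, and without HF rat 3 these were 0.22 and -0.29.

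Nr1d1 (ENSRNOG00000009329), the REV-ERB that represses Arntl, was at 92.3, 99.6 and 54.3 CPM in Sham, at 70.9, 121 and 13.1 CPM in HF, at 100.3, 79.2 and 89.1 CPM in HFE and at 59.8, 43.5 and 51.8 CPM in BAIBA. HF rats 2 and 3 held the highest and the lowest level of all 12 rats, 9.24-fold apart, so the HF mean of 68.2 ± 53.9 CPM lay between extremes. All 3 BAIBA rats lay below all 3 HFE rats. Nr1d1 was 1.73-fold lower in BAIBA than in HFE, with a log2 fold change of -0.79 (SE 0.14). Neighbours in the order of means (HFE, Sham, HF, BAIBA) overlapped.

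Nr1d1 overlaps the thyroid hormone receptor gene Thra in the GRCr8 annotation. Whether the authors' counting used the strand is not stated, so how reads from the overlap were counted is not known. Thra was at 52.8, 54.9 and 45.7 CPM in Sham, at 49.1, 55.9 and 35.5 CPM in HF, at 73, 58.2 and 55.6 CPM in HFE and at 43.5, 44.1 and 48.1 CPM in BAIBA. It too had separate BAIBA and HFE rats, with a log2 fold change of -0.46 (SE 0.12). The shares of each gene in the overlapping reads were not tested. Clock, Npas2 and Per2 overlap long noncoding RNA genes in the same annotation, and their counts carry the same limit.

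Nr1d2 (ENSRNOG00000046912), the second REV-ERB, was at 182, 173 and 152 CPM in Sham, at 155, 151 and 73.5 CPM in HF, at 128, 141 and 159 CPM in HFE and at 151, 167 and 159 CPM in BAIBA. Of the 12 rats, 11 lay between 128 and 182 CPM, and HF rat 3 was alone below them. No 2 groups were separate, and the largest difference of its means was a log2 fold change of -0.42 (SE 0.28) in HF against Sham, which was -0.15 without HF rat 3.

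Dbp (ENSRNOG00000021027), a direct target of ARNTL and CLOCK, was at 132, 155 and 91.3 CPM in Sham, at 113, 83.7 and 20.6 CPM in HF, at 63.1, 80.3 and 104 CPM in HFE and at 109, 81.5 and 81.1 CPM in BAIBA. HF rat 3 was again alone at the bottom, below the next rat (HFE rat 1) by a wide gap. The order of means was Sham, BAIBA, HFE and HF, with overlap between all neighbours. Dbp was 1.74-fold lower in HF than in Sham (log2 fold change -0.80, SE 0.61), a difference smaller than its spread among HF rats, and without HF rat 3 the log2 fold change was -0.36.

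Tef (ENSRNOG00000019383), the PAR-bZIP relative of Dbp, was at 162, 190.4 and 189 CPM in Sham, at 171, 121 and 143 CPM in HF, at 90.3, 108 and 177 CPM in HFE and at 192, 166 and 221 CPM in BAIBA. HFE rats 1 and 2 were the lowest of the 12 and BAIBA rat 3 was the highest. The range over the rats was 2.44-fold. Tef had a log2 fold change of 0.63 (SE 0.25) in BAIBA against HFE and of -0.52 (SE 0.25) in HFE against Sham, and no 2 groups were separate. Without HFE rat 3 these became 0.96 and -0.85.

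Read by rat instead of by gene, HFE rat 1 and HF rat 3 held more extremes than any other rat. HFE rat 1 held the highest level of Arntl and Npas2 and the lowest of Per1, Per2 and Tef, which was 5 of the 10 genes. HF rat 3 held the lowest level of Per3, Nr1d1, Nr1d2 and Dbp, which was 4 of the 10. Each of the other 10 rats held at most 2 extremes. HFE rat 3 was the opposite of HFE rat 1 for the activators and the Per genes, with 3.85 against 17.7 CPM for Arntl and 100.2 against 23.6 CPM for Per2. Over all genes neither HFE rat stood apart, since the mean correlations with group mates were 0.967 for rat 1 and 0.967 for rat 3. That of HF rat 3 was 0.956, between those of HF rats 1 and 2.

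**Figure D2:**
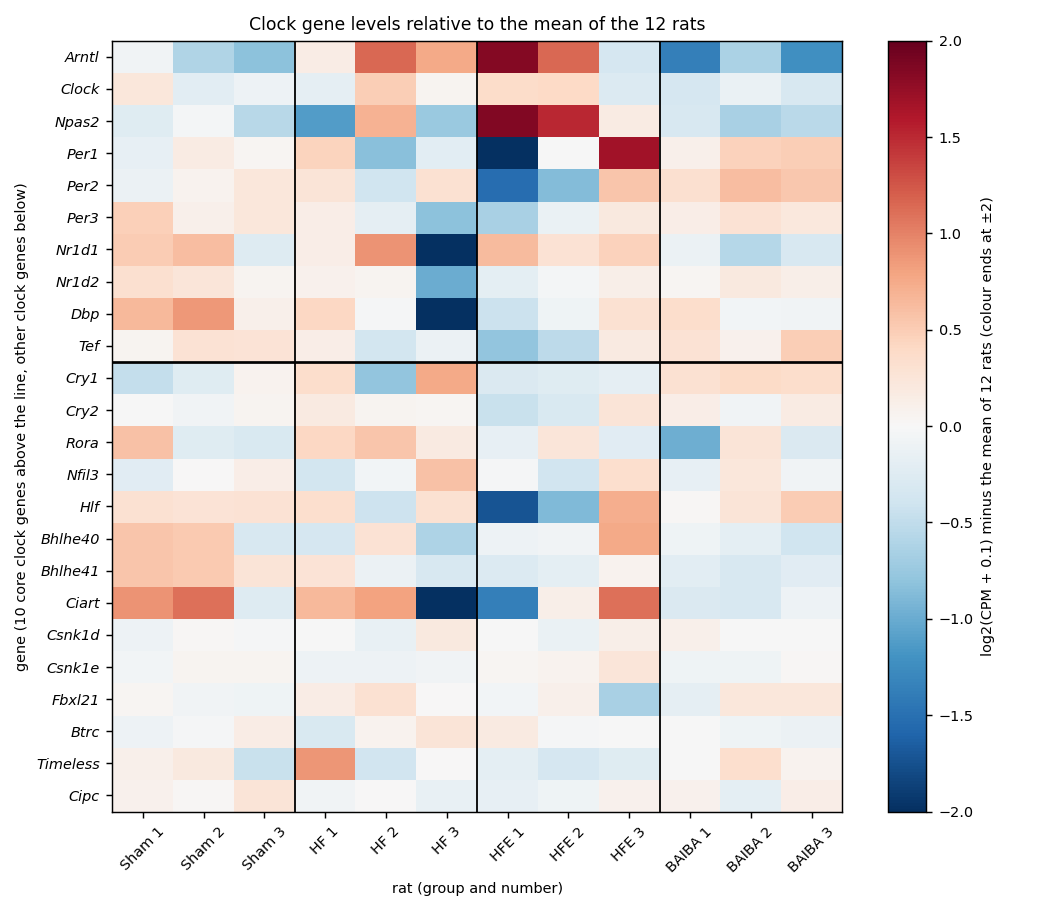
Each rat's level of the 10 clock genes (above the line) and of other clock genes with enough counts (below it), as log2(CPM + 0.1) minus the mean of the 12 rats, with colours ending at 2 log2 units either way. HFE rat 1 is red for Arntl and Npas2 and blue for Per1, Per2 and Tef, HF rat 3 is blue for Nr1d1, Nr1d2, Dbp and Ciart, and the BAIBA columns look alike.

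The spread among rats of one group was therefore set beside that of other genes. The SD of log2(CPM + 0.1) about the group means had a median of 0.623 over the 10 genes, against 0.240 over the 15617 genes with enough counts in the 12 rats. All 10 lay above the median of all genes. Since low counts raise the SD, each was also ranked among the 1000 genes nearest to it in level, and 9 of the 10 were past the 90th percentile there, with Clock at 87.7. Per1 had the largest SD, 1.02, at a percentile of 99.5. Nr1d1 (SD 0.879) was at 99.2, Dbp (0.717) at 98.8 and Per2 (0.577) at 98.1. These ranks are a description, because the genes were chosen with these values known.

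This spread was not shared equally by the groups. The median SD of the 10 genes was 0.555 in HF and 0.464 in HFE, but 0.210 in Sham and 0.187 in BAIBA. Over all genes the medians were 0.180 in Sham, 0.217 in HF, 0.190 in HFE and 0.226 in BAIBA, so BAIBA was the group with the largest median spread in general and the smallest in the clock genes. The largest SD was in HF for 5 of the 10 genes and in HFE for the other 5, against 29.8% and 20% of all genes. The smallest was in BAIBA for 6 genes, in Sham for 3 and in HFE for 1, which was Nr1d1. Of all genes, 20.3% had their smallest SD in BAIBA, 30% in Sham and 28.0% in HFE. Without HF rat 3 the median SD of the 10 genes over the groups fell to 0.348, and without HFE rat 3 it fell to 0.388. Each SD within a group rests on 3 rats.

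**Figure D3:**
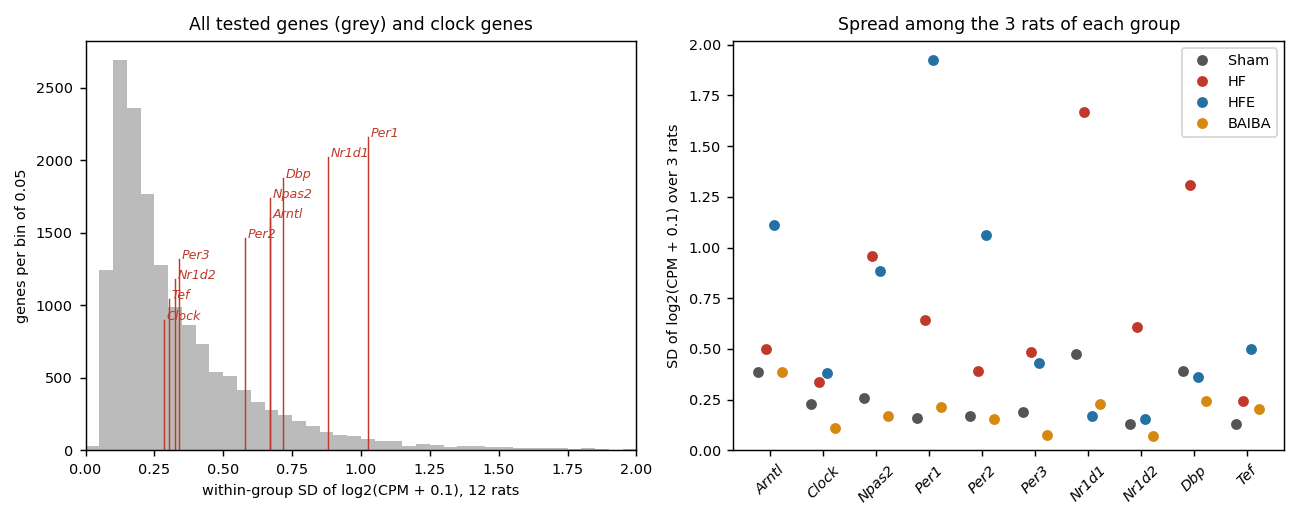
Left, histogram of the within-group SD of log2(CPM + 0.1) over all genes with enough counts (x axis ending at 2), with the 10 clock genes as red lines whose heights only separate the names. Right, the SD over the 3 rats of each group for each clock gene, where the highest point is that of HF for 5 genes and of HFE for the other 5, and the lowest is that of BAIBA for 6.

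Across the rats Arntl and Clock ran against Per2 and Tef. Arntl and Tef had a Pearson correlation of -0.949 (Spearman -0.916) over the 12 rats, which stayed at -0.907 without the 2 rats farthest from the median of Arntl and was -0.967 after the group means were removed. Of 12900 genes outside the clock with a symbol and a mean of at least 1 CPM, the lowest value with Arntl was -0.914, that of Agfg2. Arntl and Tef were chosen with their levels known, so this does not measure how unusual the pair is. Clock followed Arntl with 0.869 (Spearman 0.825), and Per2 ran against it with -0.812 (Spearman -0.699). Per1 and Per2 went together with 0.821 (Spearman 0.797). The correlation of Arntl with Per1 was -0.663 (Spearman -0.678) and -0.868 after the group means were removed. It was -0.228 without the 2 farthest rats, so the Pearson value over all rats rested on those animals. Npas2 had -0.883 with Per2 (Spearman -0.622) and -0.816 with Tef (Spearman -0.427), and without the 2 rats farthest from its median these were -0.536 and -0.387. With Per3 it had -0.420, and 0.0199 without those 2 rats.

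The REV-ERB genes and Dbp went together, but largely through 1 rat. Nr1d2 and Dbp correlated at 0.949 (Spearman 0.692), and at 0.760 without HF rat 3. Nr1d1 and Nr1d2 correlated at 0.758, and at -0.133 without HF rat 3. The value for Nr1d1 and Dbp went from 0.790 to 0.178. Nr1d1 and its target Arntl correlated at 0.139 (Spearman 0.531) with HF rat 3 and at 0.664 without it. Without the 2 rats farthest from the median of Arntl the value was -0.212, so its sign depended on which rats were left out. The 12 points of each pair are rats of 4 groups and both genes of a pair come from the same library, so these values describe the samples and carry no p-value.

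**Figure D4:**
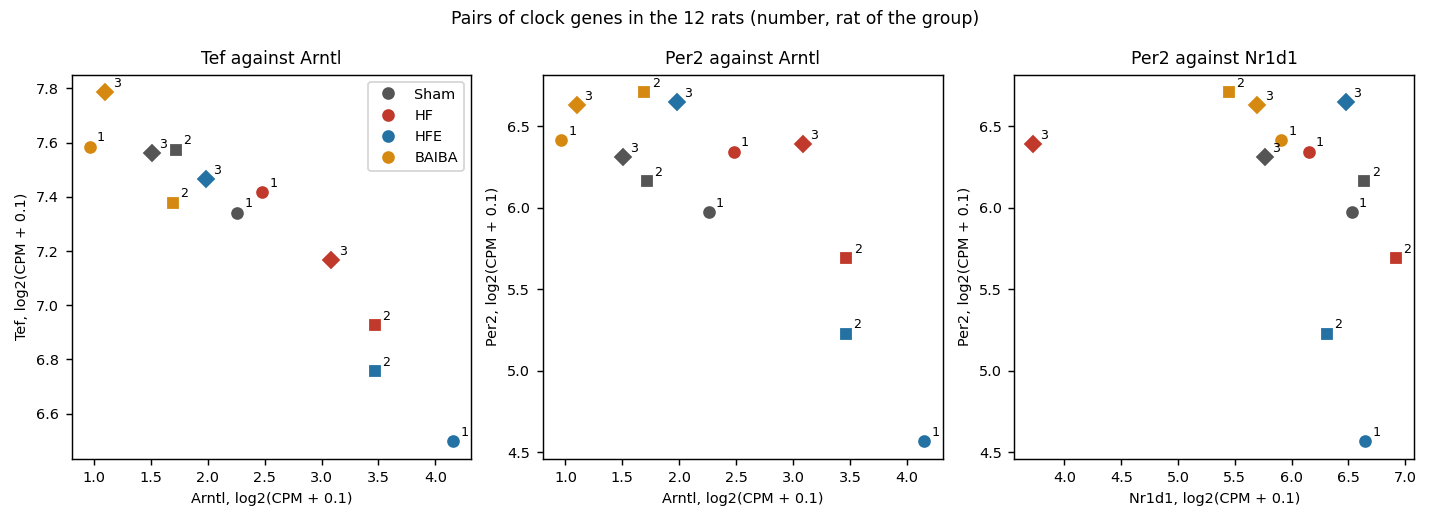
Pairs of clock genes in the 12 rats as log2(CPM + 0.1), coloured by group and numbered by rat. Tef falls along Arntl in 1 line from BAIBA and Sham at the upper left to HFE rat 1 at the lower right (Pearson -0.949), Per2 falls against Arntl more loosely (-0.812), and against Nr1d1 HF rat 3 stands far from the other rats.

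The distance between the arms of the loop within a rat was read as log2 Arntl minus log2 Per2. Counts were not divided by length here, so the change of this difference between rats is of interest and not its size. It was -5.45, -5.02 and -5.53 in the BAIBA rats and -3.71, -4.45 and -4.81 in the Sham rats. In HF it was -3.86, -2.22 and -3.30, and in HFE it was -0.41, -1.76 and -4.67. For this pair the BAIBA rats lay below all others, and no group was as wide as HFE. With Dbp in place of Per2 the difference was -5.81, -4.66 and -5.24 in BAIBA and -4.79, -5.56 and -5.01 in Sham. It was -4.35, -2.92 and -1.29 in HF and -1.83, -2.86 and -4.73 in HFE. With Dbp the BAIBA rats overlapped the Sham rats and HFE rat 3, and HF was wider than HFE.

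The groups were compared with edgeR's quasi-likelihood test over all genes, calling a gene at an adjusted p under 0.05 and a fold change over 2. In HF against Sham, where 0% of all genes tested were called, 0 of the 10 clock genes were called. At an unadjusted p under 0.05, which 6% of all genes passed, 1 of the 10 passed, and DESeq2 called 0 (0.154% of the genes it tested). Arntl alone had HF and Sham rats that did not overlap, as did 11.7% of all genes. The median log2 fold change of the 10 genes was -0.20, against 0.01 for all genes, with 4 higher and 6 lower. In HFE against HF (0% called), edgeR called 0 of the 10, 1 passed an unadjusted p under 0.05 (7.62% of all genes), DESeq2 called 0 (0.155% of the genes it tested), and all 10 overlapped (14.3% of all genes did not). The median was 0.18, against -0.01 for all genes, with 8 higher and 2 lower (Per2 and Tef).

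In BAIBA against HF (0% called), edgeR called 0 of the 10, while 3 passed an unadjusted p under 0.05 (5.55% of all genes). DESeq2, which called 0.181% of the genes it tested, called Arntl as lower in BAIBA. The rats did not overlap for Arntl, which was lower, and for Per2 and Per3, which were higher (11.4% of all genes did not overlap). The median log2 fold change of the 10 genes was 0.32, against -0.01 for all genes, with 6 higher and 4 lower. The 4 that were lower were Arntl, Clock, Npas2 and Nr1d1.

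In BAIBA against Sham (0.0402% called), edgeR called 0 of the 10, 3 passed an unadjusted p under 0.05 (7.41% of all genes), and DESeq2 called 0 (0.425% of the genes it tested). Per2 alone did not overlap (12.7% of all genes), and the median was -0.16 with 3 higher and 7 lower, against 0.0040 for all genes. In HFE against Sham (0% called), edgeR called 0 of the 10, and 3 passed an unadjusted p under 0.05 (11.2% of all genes). DESeq2 called Arntl and Npas2 as higher in HFE, where it called 0.467% of the genes it tested. Npas2 alone did not overlap (17.8% of all genes), and the median was -0.05 with 5 higher and 5 lower, against 0.01 for all genes.

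In BAIBA against HFE (0.0808% called, or 12 genes, and 32 with the rat number as a block), edgeR called 0 of the 10 with or without the block, and 5 passed an unadjusted p under 0.05 (9.57% of all genes). DESeq2 called Arntl and Npas2 as lower in BAIBA, where it called 1.07% of the genes it tested. Arntl, Npas2 and Nr1d1 did not overlap (15.6% of all genes). The median was -0.04 with 5 higher and 5 lower, against 0.00049 for all genes. Npas2 was also called by edgeR in this comparison and in HFE against Sham when HFE rat 3 was left out, and in no other omission of 1 rat was any of the 10 genes called. The comparisons share rats, since each group enters 3 of them. As the genes were chosen for their levels in these rats, nothing is read from these counts.

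**Figure D5:**
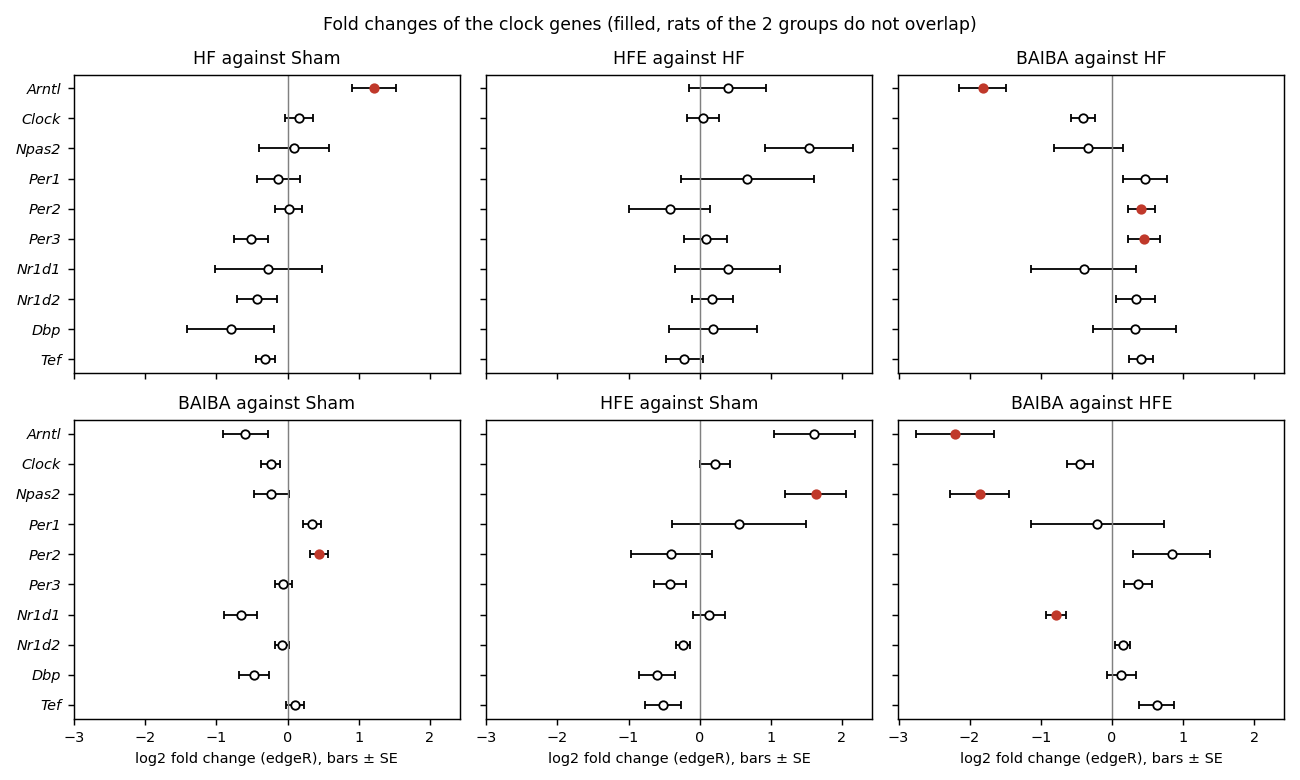
Log2 fold change (edgeR) of the 10 clock genes in the 6 comparisons, with bars of 1 SE on either side, and filled red points where the 3 rats of one group lie wholly above or below the 3 of the other. Arntl is filled in 3 panels, at 1.21 in HF against Sham, -1.82 in BAIBA against HF and -2.21 in BAIBA against HFE, while the widest bars belong to Per1 in the panels with HFE and to Nr1d1 in those with HF.

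The rest of the clock was represented by 18 genes, listed from general knowledge. Of these, 15 had enough counts, and 3 were below the filter, among them Rorb and Arntl2 with at most 1 and 7 counts in any rat. In none of the 6 comparisons did edgeR or DESeq2 call any of the 15. Of all genes tested, edgeR called at most 0.0808% in any comparison and DESeq2 between 0.154% and 1.07%. The lowest adjusted p-values by edgeR's quasi-likelihood test were 0.805 in HF against Sham, 0.648 in HFE against HF, 0.851 in BAIBA against HF, 0.283 in BAIBA against Sham, 0.292 in HFE against Sham and 0.176 in BAIBA against HFE. At an unadjusted p under 0.05, 1 of the 15 was lower in HF against Sham (6% of all genes passed), 1 was higher in HFE against HF (7.62%), 0 passed in BAIBA against HF (5.55%), 1 was higher and 2 were lower in BAIBA against Sham (7.41%), 1 was lower in HFE against Sham (11.2%) and 1 was higher in BAIBA against HFE (9.57%). The median log2 fold change of the 15 lay between -0.11 in HFE against Sham and 0.03 in BAIBA against HFE.

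Cry1, which encodes a repressor that joins the PER proteins, was the gene with the lowest of these values. It was at 7.29, 8.59 and 10.7 CPM in Sham, at 13, 5.80 and 17.2 CPM in HF, at 8.26, 8.53 and 8.89 CPM in HFE and at 12.5, 13.2 and 13 CPM in BAIBA. All 3 BAIBA rats lay above the HFE rats and above the Sham rats, with log2 fold changes of 0.59 (SE 0.13) and 0.55 (SE 0.17) and adjusted p-values of 0.176 and 0.565 (edgeR's quasi-likelihood test), so neither passed. Cry2, the second cryptochrome, was lowest in HFE rat 1 at 48.9 CPM and highest in HFE rat 3 at 79.6 CPM.

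Bhlhe41 (DEC2), an E-box repressor, was at 12.7, 12.4 and 10.2 CPM in Sham, at 10.4, 7.89 and 6.86 CPM in HF, at 7.06, 7.49 and 9.01 CPM in HFE and at 7.39, 6.85 and 7.34 CPM in BAIBA. All 3 Sham rats lay above the BAIBA and HFE rats, with log2 fold changes of -0.70 (SE 0.15) and -0.57 (SE 0.15) and adjusted p-values of 0.283 and 0.292 (edgeR). Its relative Bhlhe40 (DEC1) had its lowest level in HF rat 3, at 35.7 CPM, and its highest in HFE rat 3, at 91.8 CPM.

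Ciart, a repressor of ARNTL and CLOCK that is named for its circadian expression, was lowest in HF rat 3, as were Dbp and both REV-ERB genes. It was at 20.8, 23.9 and 9.26 CPM in Sham, at 17.5, 19.5 and 2.13 CPM in HF, at 4.26, 12.1 and 24 CPM in HFE and at 9.07, 8.90 and 10.3 CPM in BAIBA, with HFE rat 1 next above HF rat 3. The highest level was 11.3 times the lowest. Hlf, the remaining PAR-bZIP gene, was lowest in HFE rat 1 at 0.266 CPM and highest in HFE rat 3 at 1.89 CPM, with 4 and 30 counts behind these values. Nfil3, which competes with the PAR-bZIP factors for the D-box, was highest in HF rat 3 at 15.5 CPM, the rat in which Dbp was lowest. Rora, an activator at the RORE, was between 0.896 and 2.84 CPM in all rats.

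Several genes that act on clock proteins varied little. The kinases Csnk1d and Csnk1e ranged over 1.28-fold and 1.27-fold across the 12 rats. Their within-group SDs of 0.120 and 0.072 were below the median of all genes. Btrc, a ubiquitin ligase subunit, ranged over 1.48-fold, and Cipc, which inhibits CLOCK, over 1.36-fold. Fbxl21 and Timeless varied more, over 1.98-fold and 2.56-fold.

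Among 18 genes known to follow the clock or to answer to the same signals in the heart, 17 were in the table and edgeR called 0 of them in each comparison. Of all genes it called at most 0.0808% in any comparison. At an unadjusted p under 0.05, 2 of the 17 passed in HF against Sham (6% of all genes), 4 in HFE against HF (7.62%) and 1 in BAIBA against HF (5.55%). In BAIBA against Sham 4 passed (7.41%), in HFE against Sham 3 passed (11.2%), and in BAIBA against HFE 5 passed (9.57%), all 5 higher in BAIBA. Pdk4, which shuts pyruvate out of the mitochondria, was at 83.2, 57.2 and 132 CPM in Sham, at 68.7, 345 and 711 CPM in HF, at 47.5, 38.2 and 98 CPM in HFE and at 109, 227 and 208 CPM in BAIBA. It was highest in HF rat 3, the rat with the lowest Nr1d1, Nr1d2 and Dbp, and next in HF rat 2. Ucp3, a mitochondrial carrier that rises with fatty acid use, was also highest in HF rat 3, at 41 CPM. The other 11 rats were between 1.30 and 15.2 CPM.

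DESeq2 called 1 of the 17 genes in HFE against HF (0.155% of the genes it tested), 1 in BAIBA against HFE (1.07%) and 0 in the other 4 comparisons. Tfrc, the transferrin receptor, was at 36.8, 36.6 and 62.2 CPM in Sham, at 58.6, 30.3 and 31.5 CPM in HF, at 84.5, 68.7 and 97.7 CPM in HFE and at 76.8, 44.2 and 36 CPM in BAIBA and was higher in HFE than in HF, with a log2 fold change of 1.06 (SE 0.29). Tsc22d3, a glucocorticoid-induced regulator of transcription, was at 79.5, 88.3 and 124 CPM in Sham, at 90.6, 75.5 and 169 CPM in HF, at 54.6, 55.9 and 97.6 CPM in HFE and at 147, 159.8 and 136 CPM in BAIBA and was higher in BAIBA than in HFE, with a log2 fold change of 1.09 (SE 0.23). The adjusted p-values of Tfrc and Tsc22d3 by edgeR's quasi-likelihood test were 0.627 and 0.179.

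The genes most like Arntl were sought among 12900 genes with a symbol and at least 1 CPM, by the Pearson correlation of log2(CPM + 0.1) over the 12 rats. The highest were Dact1 (0.929), Skp1 (0.894), Unc5b (0.889), Srgap1 (0.887) and Cep164 (0.884). The lowest were Agfg2 (-0.914), Tmem41a (-0.894), Ngdn (-0.876), Slit3 (-0.861) and Fads6 (-0.861). Without HF rat 3 the 5 highest were between 0.883 and 0.931 and the 5 lowest between -0.909 and -0.857. For Dbp the highest were Ube2d2 (0.884), AC115371.1 (0.881), Cyp51 (0.859), Slc26a6 (0.857) and Rrs1 (0.855), and the lowest were Jup (-0.918), Ypel2 (-0.913), Pnrc1 (-0.912), Nrap (-0.885) and Pld2 (-0.870). Without HF rat 3 the values of the 5 highest fell to between 0.438 and 0.693, and those of the 5 lowest were between -0.831 and -0.607. In tissue RNA, fewer cells that express a gene and less RNA in each cell cannot be told apart, here and in all values above.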

How the data were processed

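Per the labels and the study's methods, RNA bound to oligo(dT) beads was sequenced as paired ends, and the authors removed adapters and poor reads, aligned with HISAT2, added assembled genes through StringTie and Gffcompare and counted with featureCounts (versions, annotation release and strand setting not given in the sources used here). The labels name the mouse build mm9, while the identifiers are rat Ensembl genes. The deposited counts are raw whole numbers, and the deposited FPKM values were made by the authors from them. A second deposited copy of both differed in 0 values. Groups came from the sample titles, 3 rats each, and 0 value columns lacked a sample.

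Each comparison used the counts of its 2 groups in edgeR 4.0.16 under R 4.3.3 (filterByExpr, TMM, robust quasi-likelihood fit, no covariate, Benjamini-Hochberg adjustment over all genes tested), tested on simulated data beforehand. The SE of a log2 fold change came from its F statistic. CPM was scaled with TMM factors of the 12 rats together, and log2 CPM had a pseudocount of 0.1. Alternatives were DESeq2 1.42.0, RLE or library-size scaling, no filter beyond 1 count, a fit of all 12 rats, a replicate block, limma 3.58.1 on log2(FPKM + 1) and log2(FPKM + 0.1) for genes with a mean of at least 0.1 FPKM, no fold limit, an unadjusted p and each rat left out. Leaving rats out of the median SD was added after seeing the data.

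The clock genes and all lists were chosen with earlier results of these data known. Named were the 10 clock genes, the other clock genes of the list (some are counted with it but not reported singly here), the output genes that a test called or that changed most, and the 5 genes most and least correlated with Arntl and with Dbp. Thra was added as the neighbour of Nr1d1. Genes of the glucocorticoid, immediate early and heat shock lists were named after their values were seen. The list gene Tcap was not analysed here. Between replicates the chi-square per degree of freedom was 11.8 to 33.7, so none was a repeat of another. Same-numbered rats are different animals. Their deviations correlated above 0.1 for every number in BAIBA against HFE alone (0.195, 0.265 and 0.139). The sources give no pairing or batch behind this, so the block served only as an alternative fit. All fold changes, SEs and calls in the text are from fits without the block unless it is named. Depth was 14812541 to 19732588 counts per rat. Nothing in the labels says more of how rats were housed or handled. A p-value sets a difference between groups against the spread between these rats. It cannot tell the treatment apart from housing or handling that went with a group.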

Additional observations from a re-analysis of the deposited data

How the results depend on the processing

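The number of clock genes called stayed at 0 in all 6 comparisons under RLE or library-size scaling, no filter, the fit of all 12 rats, limma on either FPKM scale and no limit on the fold change. DESeq2 called 1 in BAIBA against HF, 2 in HFE against Sham and 2 in BAIBA against HFE. An unadjusted p with the 2-fold limit kept called 1 in HF against Sham, 1 in HFE against HF, 1 in BAIBA against HF, 2 in HFE against Sham and 2 in BAIBA against HFE. The share of all genes under this joint rule was not counted, so nothing is read from these counts. With 1 rat left out the count was 0 to 1 in HFE against Sham and 0 to 1 in BAIBA against HFE, both from Npas2 without HFE rat 3, and 0 in the other 4. The replicate block called 0 clock genes in each comparison, while in BAIBA against HFE it called 32 genes in all against 12 without it. In the other comparisons it called 0, 0, 0, 9 and 1 genes in all. The sources pair no rats by number in any comparison. The other clock genes stayed at 0 called under each alternative.

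The median SD of the 10 genes was 0.422 on log2(FPKM + 1), a scale that compresses low genes by its construction, and with 1 rat left out it ranged from 0.348 to 0.664. Of 60 fold changes, 21 changed sign under some alternative and 10 moved by more than the SD between rats. Among the 18 of at least 0.5 in size the sign changed for Per1 in HFE against HF (-0.60 without HFE rat 3) and in HFE against Sham (-0.72 without that rat, -0.13 with the block, -0.17 and -0.22 with limma). The low counts of Arntl and Npas2 limit their precision.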

Other observations

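Genes that glucocorticoids switch on were looked at because some clock genes, Per1 among them, also answer to these hormones. Of the 11, edgeR's quasi-likelihood test called 0 in each comparison, where it called at most 0.0808% of all genes. DESeq2 called 1 in HFE against HF (0.155% of the genes it tested), 1 in BAIBA against Sham (0.425%) and 4 in BAIBA against HFE (1.07%). In BAIBA against HFE, 6 of the 11 were higher and 0 were lower at an unadjusted p under 0.05, a level that 9.57% of all genes passed. Tsc22d3 and Klf9, which passed in BAIBA against HFE, were also on the list of output genes above, so the lists are not separate. By fold change alone 8 were higher there and 3 lower, Sgk1 among the latter (-0.85, SE 0.74). At the same level 6 were higher in BAIBA against Sham (7.41%) and 4 were lower in HFE against HF (7.62%). In HF against Sham 2 were higher (6%), in BAIBA against HF 1 was lower (5.55%), and in HFE against Sham 0 passed (11.2%). Fkbp5, a chaperone of the glucocorticoid receptor, was at 32.2, 31.7 and 50.9 CPM in Sham, at 45.2, 38 and 64.9 CPM in HF, at 24.2, 20.9 and 35.9 CPM in HFE and at 54.5, 69.1 and 73 CPM in BAIBA. Its log2 fold change in BAIBA against HFE was 1.28 (SE 0.21), with an adjusted p of 0.131 by edgeR. Ddit4, an inhibitor of mTORC1 signalling, had a log2 fold change of 1.20 (SE 0.21), and Angptl4, an inhibitor of lipoprotein lipase, had one of 2.00 (SE 0.39), with adjusted p-values of 0.136 and 0.156 (edgeR). In BAIBA against Sham the lowest adjusted p of the list was that of Errfi1, a feedback inhibitor of EGF receptor signalling, at 0.0927 with a log2 fold change of 1.17 (SE 0.16). The summed level of the 11 genes was 483 to 626 CPM in BAIBA, 244 to 553 CPM in HFE, 361 to 578 CPM in HF and 326 to 469 CPM in Sham. HFE rat 1, with the highest Arntl, had the lowest sum of the 12 rats, and 5 of the 11 genes were lowest in it.

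The 11 immediate early genes were higher in HFE than in Sham for 11 of 11, with a median log2 fold change of 2.40 against 0.01 for all genes. None was called there by edgeR (0% of all genes tested) or by DESeq2 (0.467%). At an unadjusted p under 0.05 by edgeR, 2 passed (11.2% of all genes). The sums without HFE rat 3 were 281 and 352 CPM in HFE. Of 7 heat shock genes, 6 were in the table and 5 had enough counts, and none of the 5 was called by edgeR or DESeq2 in any comparison. Of all genes tested these called at most 0.0808% and 1.07%. At an unadjusted p under 0.05 by edgeR, 1 of the 5 passed in each comparison with BAIBA, and 0 passed in the other 3 comparisons. Hspb1 was lower in BAIBA than in HF (5.55% of all genes passed) and than in HFE (9.57%). Against Sham it was a different gene, Hsph1, that was lower in BAIBA (7.41%).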
